A study of Homo sapiens with 8 samples.

Results

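The mitochondrial ribosomal protein genes, recognised by symbols that start with MRPL or MRPS and go on with a number and at most 1 letter from A to C, were followed through early differentiation of human embryonic stem cells (ESCs) and after exposure to a dioxin. The rule found 78 genes among the 27317 symbols of the count files, 49 with an MRPL symbol (large subunit) and 29 with an MRPS symbol (small subunit). All 78 had enough counts to enter the test, among 17268 genes. The cells were of the established Mel1 line, and no subclone is named in the labels. The 8 RNA sequencing libraries fall into 4 groups of 2. At the ESC stage, cells received 2 nM of 2,3,7,8-tetrachlorodibenzodioxin (TCDD), which binds the aryl hydrocarbon receptor (AHR), or the DMSO in which it was dissolved. The TCDD D2 and DMSO D2 groups were collected 2 days after cardiac differentiation began, in RPMI1640 with B27 lacking insulin and 5 µM CHIR99021, an inhibitor of the kinase GSK3. The TCDD D1 and DMSO D1 groups were collected just before differentiation, in E8 medium. How long cells were exposed was not given in the sources used here, nor was whether the paired libraries of a group stem from different dishes. A p-value thus covers only how far these libraries spread, which may be technical.

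Mitochondria carry their own ribosome, which translates the membrane subunits of the respiratory chain that mitochondrial DNA encodes. Its ribosomal RNAs are made inside the organelle, while all its proteins are encoded in the nucleus, made in the cytosol and imported, so that 2 genomes supply 1 particle. Pluripotent cells rely largely on glycolysis, and respiration is known to rise as they turn into heart muscle.

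Libraries held 34873055 to 43770420 counts, and the 78 genes took 0.46% to 0.518% of them. CYP1A1, the standard target gene of AHR, had 2.56 and 1.82 CPM (counts scaled to library size) in TCDD D2, 0.464 and 0.292 CPM in DMSO D2, 101 and 77.7 CPM in TCDD D1, and 0.761 and 0.813 CPM in DMSO D1, with log2 fold changes of TCDD over DMSO of 2.56 at D2 and 6.82 at D1 (edgeR adjusted p = 0.000176 and 2.03e-15). Pluripotency markers summed to 6298 to 6658 CPM at D2 and 9127 to 10048 CPM at D1, and all 8 were detected. With TCDD, 3 of the 8 were higher and 5 lower at D2 than at D1 (edgeR adjusted p under 0.05). With DMSO, 1 was higher and 5 were lower. Primitive streak and early mesoderm markers summed to 475 to 542 CPM in TCDD D2, 780 to 806 CPM in DMSO D2 and 8.72 to 10.3 CPM at D1. Endoderm markers summed to 6.65 to 8.28 CPM at D2 and 0.28 to 0.677 CPM at D1. Trophoblast and amnion markers summed to 1.17 to 2.09 CPM at D2 and 9.63 to 11.5 CPM at D1. Most of that sum was KRT7, and 4 of the 5 genes were under 1 CPM in every library. Neuroectoderm markers summed to 1.67 to 2.09 CPM at D2 and 1.80 to 2.28 CPM at D1. A fibroblast list summed to 131 to 199 CPM at D2 and 325 to 388 CPM at D1, nearly all of it COL1A1, with 1 of its 5 genes at 0 in all libraries. The part of these marker changes in the D2 against D1 results was not tested. In such bulk samples, fewer cells of a type and less RNA per cell cannot be told apart, and time, medium and any handling batch cannot be told apart in D2 against D1.

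The start regions of 6 of the genes are shown because they hold, or in the last case lack, the motifs that were most frequent among mitoribosomal protein genes. Each run covers 100 bases before to 50 bases after a start listed by RefSeq (GRCh38.p14), read along the gene's strand. They lie at chr4:77862730-77862879 (plus strand, MRPL1), chr5:44808847-44808996 (plus, MRPS30), chr1:175023376-175023525 (minus, MRPS14), chr19:38930844-38930993 (plus, MRPS12), chr3:179604589-179604738 (minus, MRPL47) and chr17:81703267-81703416 (plus, MRPL12). Capitals mark letters that match the motif of YY1 in the first 3 and of ETS factors in the next 2, and MRPL12 has no capitals.
MRPL1: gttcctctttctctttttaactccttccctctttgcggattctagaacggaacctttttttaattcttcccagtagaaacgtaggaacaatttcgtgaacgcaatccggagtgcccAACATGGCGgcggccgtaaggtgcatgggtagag
MRPS30: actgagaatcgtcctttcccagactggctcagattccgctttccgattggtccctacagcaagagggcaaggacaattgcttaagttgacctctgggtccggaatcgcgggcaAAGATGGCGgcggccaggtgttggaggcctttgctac
MRPS14: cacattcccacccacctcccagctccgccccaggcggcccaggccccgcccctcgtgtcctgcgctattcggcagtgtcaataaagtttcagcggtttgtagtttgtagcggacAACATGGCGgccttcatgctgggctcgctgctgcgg
MRPS12: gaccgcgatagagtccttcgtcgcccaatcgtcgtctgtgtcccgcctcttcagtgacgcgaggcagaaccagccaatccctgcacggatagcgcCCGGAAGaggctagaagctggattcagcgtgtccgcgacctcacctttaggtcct
MRPL47: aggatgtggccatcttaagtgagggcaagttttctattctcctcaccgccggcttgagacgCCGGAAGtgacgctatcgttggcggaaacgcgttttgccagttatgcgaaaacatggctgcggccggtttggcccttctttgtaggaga
MRPL12: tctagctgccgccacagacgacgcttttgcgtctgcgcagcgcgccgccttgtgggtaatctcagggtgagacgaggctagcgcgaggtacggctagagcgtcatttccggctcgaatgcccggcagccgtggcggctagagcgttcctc

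Matches were counted on both strands from 250 bases before to 50 bases after each listed start, for the 69 genes that RefSeq's promoter table holds under their symbol, which have 85 starts. MRPL2, MRPL10, MRPL13, MRPL15, MRPL21, MRPL23, MRPL35, MRPS28 and MRPS36 had no entry. The ETS motif, written CCGGAAG, matched in 43.5% of the mitoribosomal protein genes (30 of 69), against 19.5% of the 12401 tested genes in the table and 12.2% of its 27305 genes. ETS factors include GABPA, a known regulator of nuclear genes for mitochondria. The YY1 motif, AANATGGCG, matched in 26.1% of the mitoribosomal protein genes (18 of 69), against 6.82% of tested genes and 3.85% of all genes in the table. In 16 of these 18 genes a match began 0 to 40 bases after the start, or 88.9%, against 61.8% of the tested genes with the motif. The motif holds the letters ATG, and in MRPL1, MRPS30 and MRPS14 the match lies inside the transcribed part of the printed run.

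The motif of nuclear respiratory factor 1 (NRF1), GCGCANGCG, matched in 20.3% of the mitoribosomal protein genes, against 14.8% of tested genes and 9.02% of all genes in the table. With the window narrowed to 100 bases before the start, its share among the mitoribosomal protein genes was 7.25%, or 5 of 69, below the 10.6% of tested genes, so that the order of the shares turned round with the window. The E-box of MYC proteins, CACGTG, matched in 13% of the mitoribosomal protein genes and 12% of tested genes (4.35% and 7.38% in the narrower window), and the AHR motif, TNGCGTG, in 10.1% and 9.06%. At least 1 of the NRF1, ETS and YY1 motifs was present in 50 of 69 mitoribosomal protein genes, or 72.5%, against 34.9% of tested genes. Matches of different motifs overlapped in 1 of the mitoribosomal protein genes. The median GC content of the windows was 60% for mitoribosomal protein genes and 64.3% for tested genes. A match describes letters only and was not taken as a bound site.

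**Figure D1:**
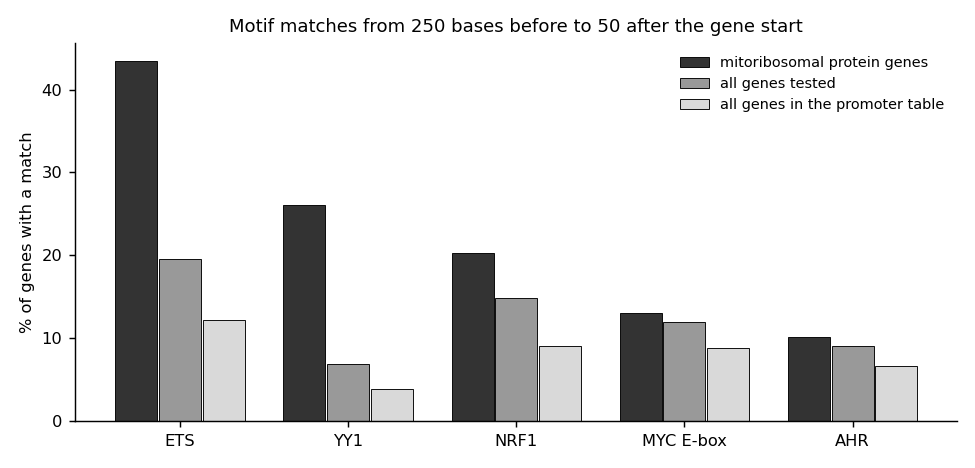
Bars give the percentage of genes with a motif match in the window from 250 bases before to 50 bases after the gene start, for mitoribosomal protein genes (69 genes), all tested genes (12401) and all genes of the promoter table (27305). ETS matches stood at 43.5% and YY1 matches at 26.1% of mitoribosomal protein genes, against 19.5% and 6.82% of tested genes.

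Messenger RNAs of both subunits were more abundant on day 2 of differentiation than before it, with either treatment. MRPL counts summed to 3399 and 3451 CPM in TCDD D2, 3339 and 3345 CPM in DMSO D2, 2895 and 2973 CPM in TCDD D1, and 2881 and 2899 CPM in DMSO D1. MRPS counts summed to 1939 and 1954 CPM in TCDD D2, 1915 and 1917 CPM in DMSO D2, 1594 and 1667 CPM in TCDD D1, and 1607 and 1608 CPM in DMSO D1. For each subunit, all 4 D2 libraries lay above all 4 D1 libraries. The D2 sums were higher than the D1 sums by 15.6% (large) and 19.2% (small) with DMSO, and by 16.8% (large) and 19.4% (small) with TCDD. The large sum divided by the small sum was 1.74 to 1.77 in the D2 libraries and 1.78 to 1.82 in the D1 libraries, lower in every D2 library than in every D1 library, a difference that was not tested. CPM were scaled by edgeR's composition factors (TMM). With library totals alone, the D2 excess of the large sum with DMSO was 0.12 on the log2 scale in place of 0.21, and that of the small sum 0.17 in place of 0.25.

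**Figure D2:**
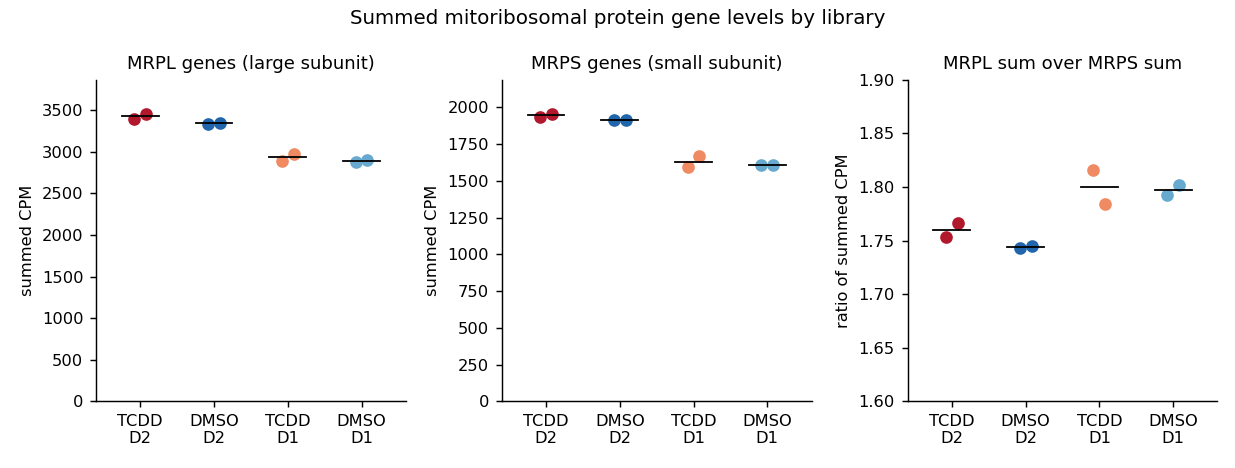
Points are libraries, with summed CPM of the 49 MRPL genes (left) and the 29 MRPS genes (middle) on axes from 0, and their ratio (right, axis from 1.6 to 1.9); lines are means of 2 libraries. For both subunits the D2 libraries lie above the D1 libraries, and the ratio lies at 1.74 to 1.77 at D2 and 1.78 to 1.82 at D1.

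Gene by gene, 56 of the 78 genes passed the test as higher in D2 against D1 with DMSO and none as lower (edgeR quasi-likelihood test, Benjamini-Hochberg adjusted p under 0.05 over all 17268 genes). Of all tested genes, 32.5% passed as higher and 30.7% as lower. With TCDD, 54 of the 78 were higher and 1 was lower, where 33.1% of all genes were higher and 32.2% lower. The 56 rises with DMSO were 32 of 49 large-subunit and 24 of 29 small-subunit genes, and the 54 with TCDD were 32 of 49 and 22 of 29. With both treatments, 51 genes passed as higher, against 28.2% of all genes tested, and all 4 D2 libraries lay above all 4 D1 libraries for 56 genes, against 33.1% of all genes tested. All 4 D2 libraries lay below all 4 D1 libraries for 1 gene, MRPS14, against 31.9% of all genes tested.

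Most changes were small. The quartiles of the 78 log2 fold changes with DMSO were 0.12 and 0.32, and their range was -0.11 to 0.88. The median log2 fold change with DMSO was 0.22 over the 78 genes, 0.19 for the large and 0.25 for the small subunit, against 0.01 over all genes tested, and with TCDD it was 0.23, against -0.00. The SD across genes was 0.18 for the mitoribosomal protein genes with DMSO and 0.85 for all genes tested. Their values with DMSO and with TCDD, which come from separate libraries, had a Pearson correlation of 0.89 and a Spearman correlation of 0.85 across the 78 genes, against 0.92 and 0.90 across all genes tested. These are correlations across genes, which are not independent replicates and share the depth and composition of their libraries. With library totals alone, the median of all genes shifted to -0.08 with DMSO and -0.11 with TCDD, and the counts were 39 higher and 6 lower with DMSO and 37 higher and 9 lower with TCDD. Of all genes tested, library totals alone called 4381 higher and 6419 lower with DMSO, in place of 5617 and 5296, and 4183 higher and 6996 lower with TCDD, in place of 5709 and 5560. The median of the 78 genes lay above that of all genes by 0.21 with DMSO and 0.23 with TCDD, a distance that scaling cannot change, since it shifts every gene alike. In the 8 fits that left out 1 library, this distance ran from 0.21 to 0.23 with DMSO and from 0.20 to 0.25 with TCDD.

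**Figure D3:**
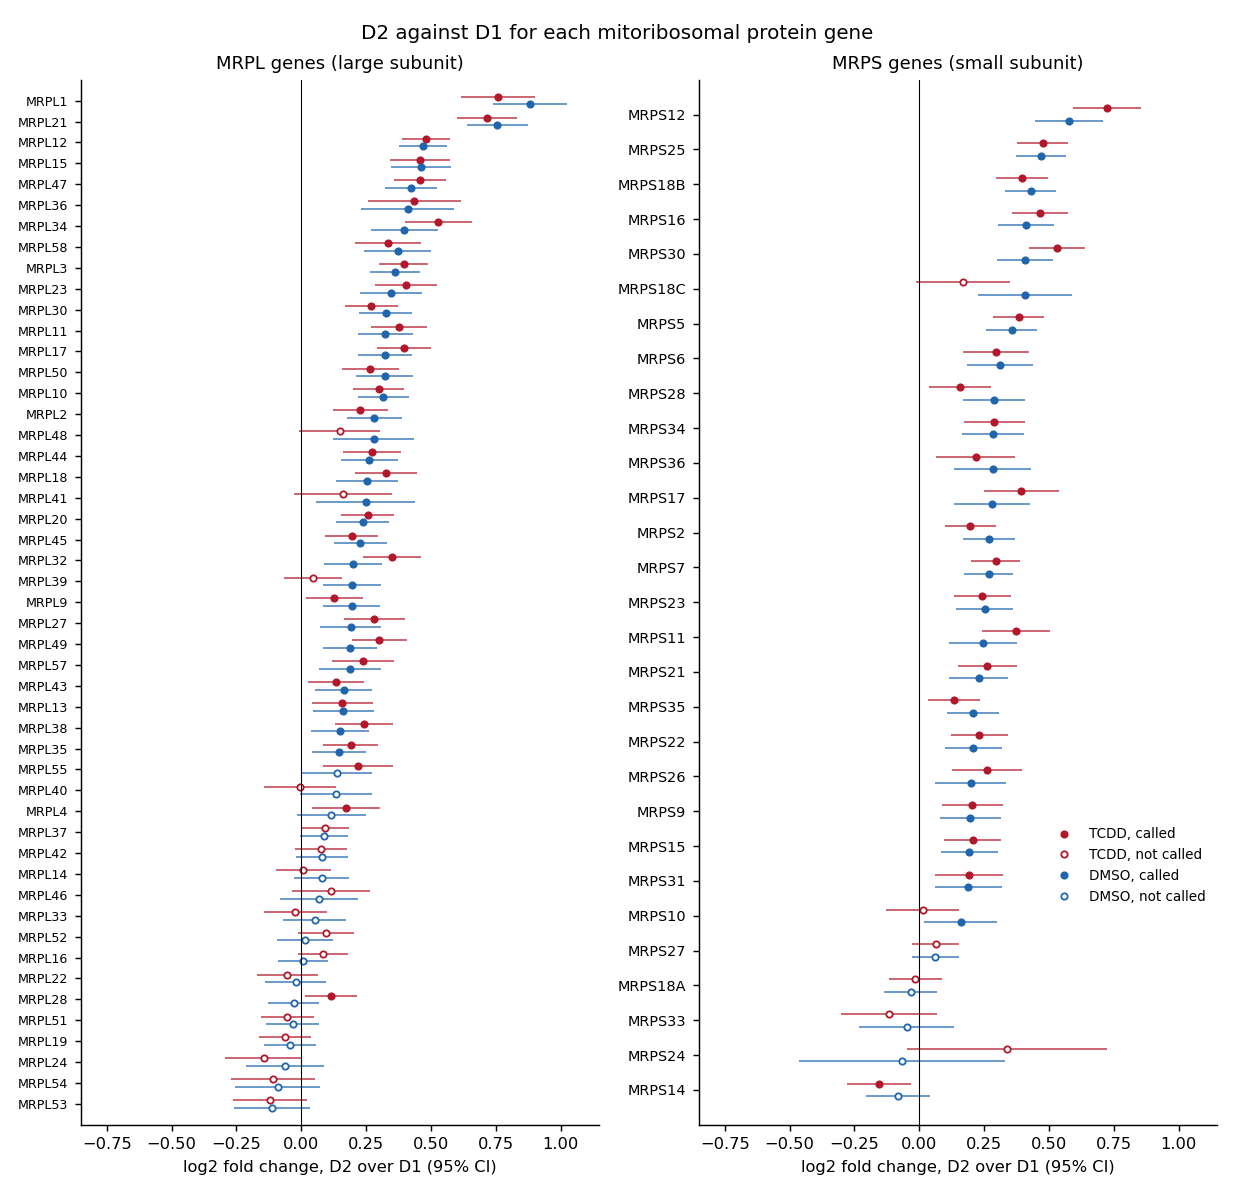
Log2 fold change of D2 over D1 for each of the 49 MRPL genes (left) and 29 MRPS genes (right), with 95% confidence intervals; red is TCDD and blue DMSO, and filled points passed the test. Most genes lie right of 0 with both treatments, MRPL1, MRPL21 and MRPS12 farthest, and MRPS14 is the 1 gene that passed the test left of 0 (with TCDD).

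MRPL1, a protein of the stalk beside the exit site for spent tRNAs, showed the largest rise. It had 41.6 and 40.7 CPM in TCDD D2, 41.3 and 39.98 CPM in DMSO D2, 22.5 and 26.3 CPM in TCDD D1, and 22.1 and 21.9 CPM in DMSO D1. All D2 libraries were high and all D1 libraries low, with no overlap. The log2 fold change of D2 over D1 was 0.76 with TCDD (SE 0.0671) and 0.88 with DMSO (SE 0.0679, edgeR adjusted p = 2.97e-09), or 1.69-fold and 1.84-fold. MRPL21, a protein of the large-subunit body, had 46.0 and 45.3 CPM in TCDD D2, 46.4 and 44.5 CPM in DMSO D2, 27.2 and 28.4 CPM in TCDD D1, and 27.1 and 26.7 CPM in DMSO D1. Its groups did not overlap between the days either, and its rise was 0.72 with TCDD and 0.76 with DMSO on the log2 scale (SE 0.0557 with DMSO, edgeR adjusted p = 1.68e-09).

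The stalk that recruits translation factors to the ribosome is built from MRPL10, its anchor, and copies of MRPL12, next to MRPL11 at its base, and all 3 genes rose. MRPL12 had 128 and 129 CPM in TCDD D2, 124 and 124 CPM in DMSO D2, 92.4 and 91.7 CPM in TCDD D1, and 88.2 and 90.7 CPM in DMSO D1. The days were clearly separated, by 0.48 (TCDD) and 0.47 (DMSO) on the log2 scale. MRPL10 rose by 0.30 (TCDD) and 0.32 (DMSO), and MRPL11 by 0.38 (TCDD) and 0.32 (DMSO). Other large-subunit genes with leading rises were MRPL15 (0.46 with DMSO), MRPL47 (0.42), which lies near the exit of the peptide tunnel, and MRPL36 (0.41). MRPL44, in which variants are a known cause of cardiomyopathy, rose by 0.26 with DMSO, and MRPL45, which ties the ribosome to the inner membrane, by 0.23. MRPL41 was called at 0.25 with DMSO (edgeR adjusted p = 0.0238), and was 0.16 with TCDD, not called. The call with DMSO was lost with DESeq2 (adjusted p = 0.188) and with library totals alone (0.16, edgeR adjusted p = 0.136). A robust spread estimate lost it too (edgeR adjusted p = 0.107). The call was also lost without replicate 1 of DMSO D1 (0.07) or replicate 2 of DMSO D2 (0.20). Without replicate 2 of DMSO D1 the value was 0.45.

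In the small subunit MRPS12, which lies at the decoding centre, rose most. It had 48.2 and 54.3 CPM in TCDD D2, 47.9 and 50.1 CPM in DMSO D2, 31.0 and 31.0 CPM in TCDD D1, and 31.9 and 33.8 CPM in DMSO D1. Again the D2 libraries were all above the D1 libraries, with log2 fold changes of 0.72 with TCDD and 0.58 with DMSO (SE 0.0618, edgeR adjusted p = 2.18e-07). Its exons overlap those of SARS2, the mitochondrial seryl-tRNA ligase gene, and with the strand setting unstated, reads of the overlap cannot be assigned with certainty. SARS2 itself was at -0.05 with TCDD and -0.06 with DMSO and was not called. MRPS25 and MRPS16 rose by 0.47 and 0.41 with DMSO, MRPS34 by 0.28 and MRPS22 by 0.21, a value that was 0.12 and not called with library totals alone. Their overlaps with NR2C2 (MRPS25), DNAJC9 (MRPS16) and PRR23A (MRPS22) carry the same uncertainty, as does that of MRPL47 with ACTL6A. So do, among genes named below, those of MRPS18A with RSPH9, MRPL28 with TMEM8A, MRPL32 with PSMA2 and MRPS2 with C9orf116. Variants in MRPS16, MRPS22 and MRPS34 are known causes of mitochondrial disease.

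The 3 human genes related to bacterial S18 did not share 1 call. MRPS18B had 85.1 and 85.1 CPM in TCDD D2, 84.6 and 83.4 CPM in DMSO D2, 64.4 and 64.9 CPM in TCDD D1, and 60.7 and 64.0 CPM in DMSO D1. MRPS18C had 15.8 and 15.4 CPM in TCDD D2, 16.1 and 17.8 CPM in DMSO D2, 13.6 and 14.1 CPM in TCDD D1, and 11.7 and 13.9 CPM in DMSO D1. MRPS18A had 59.0 and 59.2 CPM in TCDD D2, 58.2 and 55.5 CPM in DMSO D2, 59.9 and 59.6 CPM in TCDD D1, and 57.4 and 58.8 CPM in DMSO D1. Days were apart for MRPS18B and MRPS18C, and overlapped for MRPS18A. MRPS18B rose by 0.40 with TCDD and 0.43 with DMSO. MRPS18C rose by 0.41 with DMSO and was 0.17 with TCDD, not called (edgeR adjusted p = 0.0932), and its difference between treatments was not called either (-0.24, edgeR adjusted p = 0.521). MRPS18A was -0.02 with TCDD and -0.03 with DMSO, with a 95% interval of -0.14 to 0.07 with DMSO, but with library totals alone its value with DMSO was -0.12 and passed the test (edgeR adjusted p = 0.0442). Structures place the protein of MRPS18A, and that of MRPS30, in the large subunit in spite of the symbols. MRPS30 rose by 0.53 with TCDD and 0.41 with DMSO. With these 2 genes counted as large and MRPS36 left out, 33 of 51 large-subunit and 22 of 26 small-subunit genes were higher with DMSO. MRPS36, now known as a subunit of the 2-oxoglutarate dehydrogenase complex, rose by 0.22 with TCDD and 0.28 with DMSO.

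MRPS14, a small-subunit protein named here after its values were seen, ran the other way. It had 26.9 and 27.7 CPM in TCDD D2, 28.2 and 27.6 CPM in DMSO D2, 29.9 and 30.8 CPM in TCDD D1, and 29.8 and 29.3 CPM in DMSO D1. The D2 libraries were all lower, by a narrow margin. It fell by 0.15 on the log2 scale with TCDD (edgeR adjusted p = 0.0274), and its value with DMSO was -0.08, not called. The call was lost with DESeq2 (adjusted p = 0.0817), without replicate 2 of TCDD D1 (-0.13) and without replicate 1 of TCDD D2 (-0.13). Without replicate 1 of TCDD D1, 3 of the 78 genes were called lower with TCDD.

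**Figure D4:**
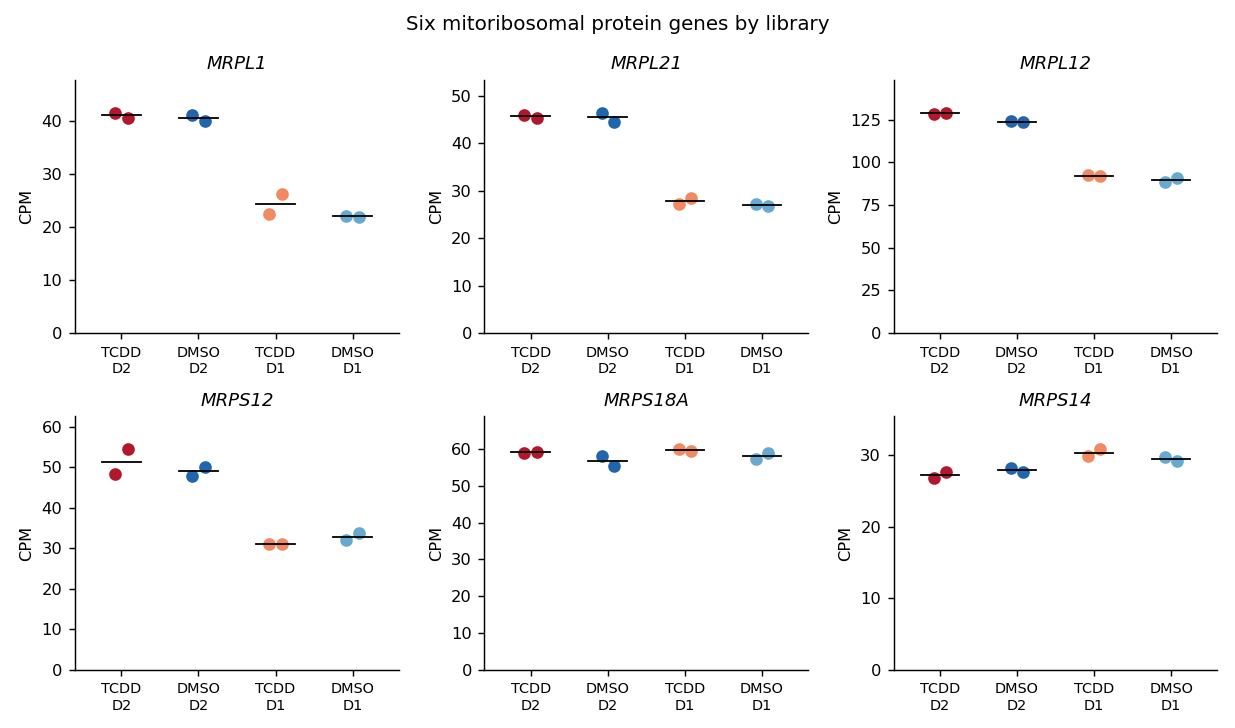
CPM in each library (points) and the mean of 2 libraries (lines) for MRPL1, MRPL21, MRPL12, MRPS12, MRPS18A and MRPS14, on axes from 0. The first 4 genes are higher in all D2 libraries than in all D1 libraries, MRPS18A overlaps, and MRPS14 is slightly lower at D2 (26.9 to 28.2 CPM) than at D1 (29.3 to 30.8 CPM).

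With neither treatment did 18 genes pass the test, 14 of the large and 4 of the small subunit. Among them were MRPL51 and MRPL19, named after their values were seen, which had the highest levels per length before differentiation, at 159 and 152 CPM per kb of transcript in DMSO D1. Their exons overlap those of NCAPD2 (MRPL51) and GCFC2 (MRPL19), so that reads of the overlaps cannot be assigned with certainty. MRPL51 was -0.05 with TCDD and -0.03 with DMSO on the log2 scale, with a 95% interval of -0.13 to 0.07 with DMSO. MRPL19 was -0.06 with TCDD and -0.04 with DMSO, with an interval of -0.14 to 0.06 with DMSO. MRPS24 had the lowest level, 1.597 to 2.37 CPM in TCDD libraries and 1.502 to 1.85 CPM in DMSO libraries, and its exons overlap URGCP-MRPS24, a readthrough gene that is also counted. The other 77 genes had at least 376 counts in every library. Over the 78 genes the median level was 54.3 CPM per kb in DMSO D2 and 44.7 CPM per kb in DMSO D1, and large-subunit genes had a higher median per length than small-subunit genes, 63.0 against 45.8 CPM per kb in DMSO D2 and 54.2 against 36.4 CPM per kb in DMSO D1. These lengths are medians of coding transcripts in GENCODE v29, not the annotation that was counted.

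Many of these proteins descend from the bacterial ribosome, and others are specific to mitochondria. Of 47 genes for conserved proteins, 36 were higher with TCDD and 36 with DMSO, and 1 was lower with TCDD. Of 29 genes for mitochondria-specific proteins, 16 were higher with TCDD and 19 with DMSO. MRPL55, called higher with TCDD but not with DMSO, and MRPS36, called higher with both, were placed in neither class. Median log2 fold changes with DMSO were 0.27 for the conserved and 0.19 for the mitochondria-specific genes, and those with TCDD 0.28 and 0.16. Among MRPL genes, 23 of 29 conserved and 8 of 19 mitochondria-specific ones were higher with TCDD, and 21 and 11 with DMSO. Among MRPS genes, these counts were 13 of 18 and 8 of 10 with TCDD, and 15 and 8 with DMSO. The MRPS medians were 0.27 and 0.21 with DMSO, and 0.28 and 0.24 with TCDD. Of the 12 largest rises with DMSO, 10 belonged to conserved proteins, MRPS25 and MRPS30 being the mitochondria-specific ones. The grouping was made after values had been seen, and the difference between the classes was not tested. Motif matches were found among genes that rose and genes that were not called. Of genes higher at D2 with DMSO, 42.6% had an ETS match, 21.3% a YY1 match and 21.3% an NRF1 match, and of genes not called 45.5%, 36.4% and 18.2%. MRPL1, with the largest rise, and MRPS14, with the lowest value with TCDD, both carry the YY1 letters printed in capitals shortly after the start.

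None of the 78 genes was called for TCDD at either day. At D2, against 2.95% of all genes called, edgeR called 0 of the 78, with 3 at an unadjusted p under 0.05 (2437 of all 17268 genes), and DESeq2 called 0, with 2 at that p. At D1, against 1.2% of all genes called, edgeR called 0, with 3 at an unadjusted p under 0.05 (1798 of all genes), and DESeq2 0, with 2. The difference of the TCDD effect between the days was called for 0 of the 78, against 0.77% of all genes, with 1 at an unadjusted p under 0.05 by edgeR (1810 of all genes) and 0 by DESeq2. Log2 fold changes of TCDD over DMSO ran from -0.17 to 0.32 at D2 and from -0.13 to 0.16 at D1, each with a median of 0.03. The D2 median was 0.0084 with library totals alone, and the D1 median was 0.05 without replicate 1 of TCDD D1 and -0.0085 without replicate 2 of TCDD D1. For large-subunit genes the 95% intervals reached from -0.19 to 0.26 at D2 and from -0.24 to 0.35 at D1. For small-subunit genes they reached from -0.32 to 0.71 at D2 and from -0.48 to 0.31 at D1, with MRPS24 the widest. Every interval thus excluded a change of 1 on the log2 scale in either direction. The median SE of a gene was 0.0527 at D2 and 0.0536 at D1. The sum of primitive streak and early mesoderm markers was lower in TCDD D2 than in DMSO D2, as given above. Of its 7 genes, 4 were called lower, and 2 had a positive log2 fold change. The fibroblast sum was higher, at 198 to 199 CPM in TCDD D2 and 131 to 142 CPM in DMSO D2. The part of both lists in the TCDD values of the 78 genes was not tested.

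The genes with the smallest p at D2 were MRPL28, MRPS5 and MRPS36. MRPL28 had 108 and 115 CPM in TCDD D2, against 99.1 and 103 CPM in DMSO D2, and 103 and 102 CPM in TCDD D1, against 104 and 103 CPM in DMSO D1. Its D2 groups did not overlap, but the log2 fold change of 0.14 missed the threshold (edgeR adjusted p = 0.155). MRPS5, of the small-subunit body, was at 0.11 (edgeR adjusted p = 0.257) and MRPS36 at -0.17 (edgeR adjusted p = 0.263), which was -0.10 without replicate 1 of DMSO D2. At D1 they were MRPS2 (0.13, edgeR adjusted p = 0.285), MRPL32 (-0.13, edgeR adjusted p = 0.379), known for its processing by a mitochondrial protease before assembly, and MRPL10 (0.10, edgeR adjusted p = 0.478). Without replicate 1 of DMSO D1, MRPL32 was -0.06, and without replicate 2 of DMSO D1 it was -0.20, while MRPL10 was 0.05 without replicate 1 of TCDD D1. MRPS2 had 63.8 and 62.0 CPM in TCDD D1, against 56.8 and 57.9 CPM in DMSO D1, and 71.9 and 72.3 CPM in TCDD D2, against 70.0 and 68.1 CPM in DMSO D2. Both pairs were apart, and neither passed the test. For the difference of the TCDD effect between the days the leading genes were MRPL28 (0.14), MRPL39 (-0.15) and MRPL32 (0.15). Leaving out 1 library moved these values to 0.09 to 0.19 for MRPL28, -0.22 to -0.07 for MRPL39 and 0.08 to 0.22 for MRPL32. Across the 78 genes, the TCDD effects at D2 and at D1 had a Pearson correlation of 0.04 and a Spearman correlation of 0.08.

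**Figure D5:**
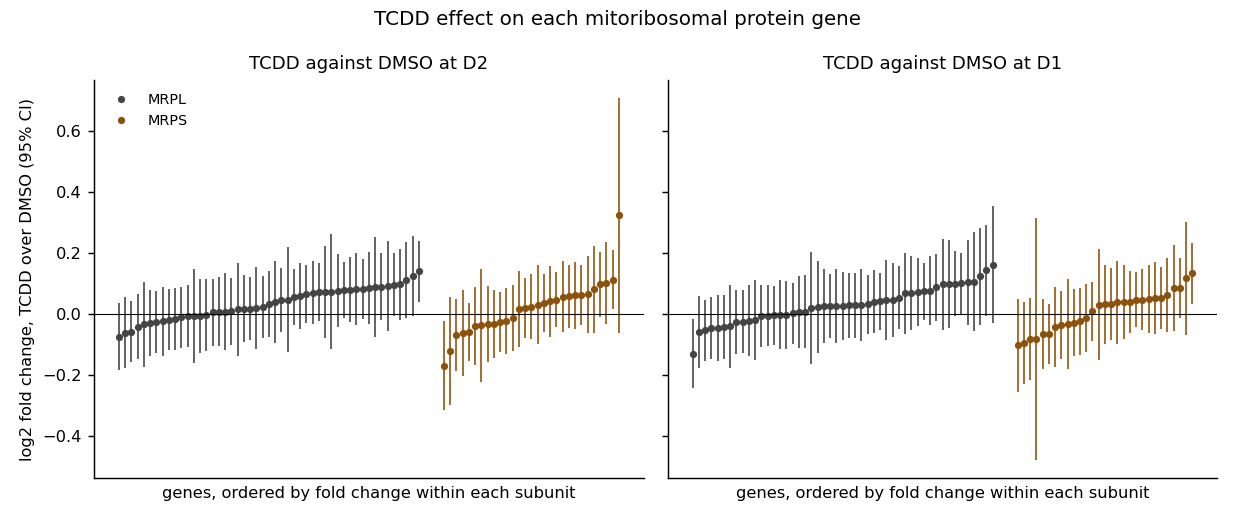
Log2 fold change of TCDD over DMSO at D2 (left) and D1 (right) for each MRPL and MRPS gene, ordered by value within its subunit, with 95% confidence intervals. Values run from -0.17 to 0.32 at D2 and from -0.13 to 0.16 at D1, and no gene passed the test.

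The ribosomal RNAs of the particle, RNR1 of the small and RNR2 of the large subunit, are transcribed from mitochondrial DNA. With DMSO both were called higher at D2, while with TCDD RNR1 was not called and RNR2 was called lower. RNR2 had 6113 and 4692 CPM in TCDD D2, 6788 and 9127 CPM in DMSO D2, 6377 and 6788 CPM in TCDD D1, and 5612 and 6112 CPM in DMSO D1. RNR1 had 429 and 362 CPM in TCDD D2, 449 and 627 CPM in DMSO D2, 358 and 374 CPM in TCDD D1, and 351 and 359 CPM in DMSO D1. At D2, replicates differed more for these RNAs than for most of the protein genes, and replicate 2 of DMSO D2 was the highest library for both. At D1 the RNR1 replicates were close to each other. At D2, TCDD against DMSO was -0.56 for RNR2 (edgeR adjusted p = 0.0051) and -0.44 for RNR1 (edgeR adjusted p = 0.0177). Both calls were lost without replicate 2 of DMSO D2 (-0.33 and -0.18), without replicate 2 of TCDD D2 (-0.38 and -0.32) and with DESeq2 (adjusted p = 0.172 and 0.324). A robust spread estimate lost both as well (edgeR adjusted p = 0.35 for RNR2 and 0.408 for RNR1). At D1 neither was called, at 0.17 for RNR2 and 0.04 for RNR1, but without the low-count filter RNR2 was called there (0.16, edgeR adjusted p = 0.00049). In D2 against D1, RNR1 was 0.11 with TCDD, not called except without that filter (edgeR adjusted p = 0.0386) and in a fit of the 4 TCDD libraries blocked by crossed replicate numbers (edgeR adjusted p = 0.0443), and 0.60 with DMSO (0.34 without replicate 2 of DMSO D2), and RNR2 was -0.28 with TCDD and 0.44 with DMSO. The RNR2 values were called in both treatments, but both calls were lost with DESeq2 (adjusted p = 0.0661 with DMSO and 0.232 with TCDD). Both were also lost with a robust spread estimate (edgeR adjusted p = 0.129 with DMSO and 0.285 with TCDD). The call with DMSO was lost without replicate 2 of DMSO D2 (0.21). The call with TCDD was lost without replicate 2 of TCDD D2 (-0.11) or of TCDD D1 (-0.24). Without replicate 1 of TCDD D2 the value with TCDD was -0.49. For RNR2 the TCDD effect differed between D2 and D1 by -0.73 (edgeR adjusted p = 0.0285), a call lost with DESeq2 (adjusted p = 0.361) and in 5 of the 8 fits without 1 library. A robust spread estimate lost that call too (edgeR adjusted p = 0.511). For RNR1 the difference between the days was -0.49, not called (edgeR adjusted p = 0.162). Without the low-count filter it was called (-0.48, edgeR adjusted p = 7.48e-11), and without replicate 1 of DMSO D2 its value was -0.71. The step that selects messenger RNA was not stated, and the level of a ribosomal RNA depends on it.

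Other genes of mitochondrial protein synthesis were counted in the same way, beside the 33.1% of all genes tested that were higher and the 32.2% lower with TCDD, and the 32.5% higher and 30.7% lower with DMSO. Of 7 subunit genes listed for their older or other symbols, which include MRPL57 and MRPL58 of the 78, 6 rose with TCDD and 5 with DMSO, none fell, and AURKAIP1 (0.37 with TCDD, 0.33 with DMSO) and CHCHD1 (0.32 with TCDD, 0.29 with DMSO) led outside the 78. DAP3, a GTP-binding protein of the small subunit, rose by 0.21 with TCDD and 0.16 with DMSO, and the call with DMSO was lost without replicate 1 of DMSO D2 (0.12) and with library totals alone (0.08). Of 28 genes for assembly and RNA modification, 15 rose and 4 fell with TCDD, and 15 rose and 3 fell with DMSO. MTG1, a GTPase of large-subunit assembly, rose by 1.08 with TCDD and 1.06 with DMSO, more than any of the 78 protein genes. Its CPM were 64.0 and 69.2 in TCDD D2, 62.4 and 64.0 in DMSO D2, 32.3 and 30.6 in TCDD D1, and 29.5 and 31.0 in DMSO D1. LRPPRC and SLIRP, partners that stabilise mitochondrial messenger RNAs, rose by 0.76 and 0.49 with DMSO, and RPUSD4, which modifies the large ribosomal RNA, by 0.42.

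Of 14 translation factor genes, 10 rose and 1 fell with TCDD, and 11 rose and none fell with DMSO. GUF1, a ribosome-bound GTPase, rose by 0.55 with TCDD and 0.50 with DMSO, and MRRF, the recycling factor, by 0.58 with TCDD and 0.56 with DMSO. TUFM, which brings charged tRNAs, rose by 0.41 with TCDD and 0.29 with DMSO, and OXA1L, which inserts new proteins into the inner membrane, by 0.35 with TCDD and 0.36 with DMSO. Of 19 genes for mitochondrial tRNA ligases, 12 rose and 1 fell with either treatment, and MARS2 (0.63), KARS (0.56) and IARS2 (0.46) were among those that rose with DMSO. KARS serves both the cytosol and mitochondria. Of 9 genes for transcription and copying of mitochondrial DNA, 5 rose and 1 fell with TCDD, and 6 rose and 1 fell with DMSO. TFAM, which packs mitochondrial DNA, rose by 0.34 with TCDD and 0.32 with DMSO, and SSBP1, which binds its single strands, by 0.33 with TCDD and 0.38 with DMSO, while POLG, the mitochondrial DNA polymerase, fell by 0.18 with TCDD and by 0.24 with DMSO. Beside the RNAs RNR1 and RNR2, edgeR called no gene of these lists for TCDD at either day, with at most 2 of any of these lists at an unadjusted p under 0.05.

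Of 13 regulators of nuclear genes for mitochondria, 7 rose and 4 fell with TCDD, and 6 rose (46.2%) and 4 fell with DMSO. The share that fell was close to that of all genes tested. NRF1 had 28.2 and 29.7 CPM in TCDD D2, 28.8 and 30.4 CPM in DMSO D2, 20.4 and 19.96 CPM in TCDD D1, and 20.7 and 19.98 CPM in DMSO D1, and rose by 0.52 with TCDD and 0.54 with DMSO. ESRRA, a nuclear receptor, rose by 0.87 with TCDD and 0.76 with DMSO. PPARGC1A, its coactivator, was low in all libraries, with 2.35 and 1.40 CPM in TCDD D2, 1.64 and 1.80 CPM in DMSO D2, 4.97 and 4.76 CPM in TCDD D1, and 4.41 and 5.19 CPM in DMSO D1, and fell by 1.35 with TCDD and by 1.48 with DMSO. MYCN fell by 1.20 with TCDD and by 1.36 with DMSO. Cytosolic ribosomal protein genes, a separate ribosome made in the same cells, were called higher in 71 of 85 cases and lower in 3 with TCDD, and higher in 73 and lower in 3 with DMSO, with a median log2 fold change of 0.25 with DMSO. Of 78 nuclear genes for oxidative phosphorylation, 50 were higher and 4 lower with TCDD, and 47 higher and 4 lower with DMSO, with a median of 0.18. The share of genes higher with DMSO was thus 85.9% for the cytosolic ribosome, 71.8% for the mitochondrial one and 60.3% for oxidative phosphorylation, and differences among these lists were not tested.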

How the data were processed

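The 8 libraries were made from total RNA of Mel1 cells, ESCs at D1 and differentiating cells at D2. The deposited values are the authors' raw counts per gene symbol, as the whole numbers in the files show. Per the submitters' processing notes, cutadapt 1.9.1, STAR and featureCounts 1.5.1 were used with the hg19 build. The annotation, the strand setting and the way messenger RNA was selected were not given in the sources used here. In GENCODE v29, exons of 34 of the 78 genes overlap another gene, for 22 of them one that is also counted, and 34 have pseudogenes of their name (75 in all, 2 of them counted), so their counts are less certain.

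From the counts, edgeR 4.0.16 (R 4.3.3) fitted all 8 libraries in 1 model of 4 groups, after its low-count filter (17268 of 27317 symbols kept) and TMM scaling, with quasi-likelihood tests, Benjamini-Hochberg adjustment over all genes and a threshold of 0.05. CPM use these factors, and intervals are 95%. The test was first tried on simulated counts. Alternatives were RLE factors, library totals alone, DESeq2 1.42.0, no filter, only the compared groups, a replicate block, each library left out, and subunits by structure. A robust spread estimate and a crossed block were added after seeing the data. Counts of replicates differed by more than sampling noise in each group (chi-square per gene 3.21 to 6.59), so none was treated as a duplicate. Conserved and mitochondria-specific classes were set after values had been seen.

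The genes named are the 12 largest called rises and falls with DMSO, called genes or the 3 of smallest p for the TCDD comparisons, a fixed set of known subunits, and up to 4 called genes of each list. A gene that this rule names is not reported here. CYP1A1 is named as a check of the exposure. The members and lists were chosen with earlier results of these data known. Promoters come from RefSeq (GRCh38.p14).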

Additional observations from a re-analysis of the deposited data

How the results depend on the processing

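Counts of genes called higher stayed within 1.5 times under every setting run. In D2 against D1 with DMSO, 49 to 56 of the 78 genes were called higher, and 0 lower, when 1 library was left out, and with TCDD 48 to 55 higher and 0 to 3 lower (49 to 56 called in all). With library totals alone, 6 were lower with DMSO and 9 with TCDD, and with DESeq2 51 were higher and 0 lower with DMSO and 50 higher and 0 lower with TCDD. Of all 17268 genes, DESeq2 called 4758 higher and 4572 lower with DMSO, and 5046 higher and 4688 lower with TCDD. The replicate block left 56 higher with DMSO and 54 higher and 1 lower with TCDD, so it changed no count. The replicates share only a number, and deviations of same-numbered libraries had correlations of -0.10 to 0.11. In a fit of the 4 TCDD libraries alone, chosen after seeing the data, the replicate block gave 47 higher and 0 lower, and crossed numbers 55 higher and 2 lower. No setting called any of the 78 genes for TCDD at either day or for the difference between the days.

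Summed log2 differences of D2 over D1 with DMSO were 0.21 for the large subunit (RLE 0.20, totals 0.12, leaving out 1 library 0.20 to 0.22) and 0.25 for the small subunit (RLE 0.24, totals 0.17, without the 3 highest genes 0.26, by structure 0.26, leaving out 1 library 0.25 to 0.26). With TCDD they were 0.11 (large) and 0.15 (small) with library totals, and 0.20 to 0.25 and 0.23 to 0.29 when 1 library was left out. TCDD over DMSO at D2 was 0.04 (large) and 0.02 (small), with library totals 0.0167 and 0.0039, and 0.03 to 0.05 and 0.02 to 0.03 leaving out 1 library; at D1 the ranges were 0.0014 to 0.04 and -0.01 to 0.05. With 1 library left out, MRPS18A with DMSO ran from -0.0639 to 0.0038, positive without replicate 2 of DMSO D2 (with library totals -0.12, called), and RNR1 with TCDD turned to -0.0123 without replicate 1 of TCDD D2; the cause was not tested. In the window from 100 bases before the start, NRF1 matches were in 7.25% and E-box matches in 4.35% of the mitoribosomal protein genes, against 10.6% and 7.38% of tested genes; the cause was not tested. With 2 libraries a group, changes under about the intervals given cannot be detected.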
